A study of Mus musculus with 16 samples.

Results

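Olfm1, Sema4a and Gp2 were 3 of the 24532 genes in a table of mouse spleen transcriptomes, and all 3 were among the 11335 genes with enough signal to be tested. They were chosen by their rise in cDC2s of GM-CSF-treated mice over cDC2s of control mice. On the scale used here no other tested gene rose more in that comparison, so the rise itself is described below without a test. The questions asked were how these genes stood in the other sorted populations, and whether they moved there as a group. They did not: Olfm1 and Sema4a were highest in DC-Xs and P-IV, whereas Gp2 was higher in every cDC group than in DC-Xs and the CD115-high cells, where it reached 2.76 FPKM at most.

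Cells were sorted from spleens of C57BL/6 mice at postnatal week 12, without a transgene, from untreated controls or from mice that got 3 injections of GM-CSF, 1 a day. GM-CSF (granulocyte macrophage-colony stimulating factor) is a cytokine that drives the production and differentiation of myeloid cells. Within the CD11c-high MHC II+ DC gate, XCR1+33D1- cDC1s and XCR1-33D1+ cDC2s came from control mice (control cDC1s, control cDC2s) and from treated mice (GM-CSF cDC1s, GM-CSF cDC2s). The XCR1-33D1- cells of that gate, called DC-Xs, and 3 populations of CD11b+CD115-high cells came from treated mice only. The latter were P-I (Ly6C+ classical monocytes), P-III (Ly6C-MHC II+CD301b-) and P-IV (Ly6C-MHC II+CD301b+), the last of which are named GM-CSF-induced DCs, or GMiDCs. P-I, P-III, P-IV and DC-Xs thus have no untreated counterpart here. The DC-X gate holds mainly P-IV cells with some P-III cells, so these populations overlap. Each of the 8 groups had 2 libraries, from 2 mice per population by the study. Whether different populations came from the same mice is not stated.

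Dendritic cells take up antigen, present it to T cells and give the signals that shape the T cell response. The cDC1 subset is known for presenting antigen to CD8+ T cells, and the cDC2 subset of the spleen for presenting to CD4+ T cells. GM-CSF acts through a receptor of a specific alpha chain (Csf2ra) and a shared beta chain (Csf2rb), with JAK2 and STAT5 downstream. Olfm1 encodes olfactomedin 1, or noelin, a secreted glycoprotein known mainly from neurons, where it takes part in axon growth and binds AMPA-type glutamate receptor complexes. Sema4a encodes a transmembrane semaphorin that DCs carry and that costimulates T cells, with plexins and, in the mouse, TIM-2 as receptors. Gp2 encodes a glycosylphosphatidylinositol-anchored protein with a zona pellucida domain. It is the major membrane protein of pancreatic zymogen granules, and on the M cells of gut lymphoid tissue it is an uptake receptor that binds the FimH adhesin of bacterial type 1 pili.

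The 3 genes lie on different chromosomes. In RefSeq's annotation of GRCm38.p6, Olfm1 (Entrez gene 56177) spans chromosome 2 from 28193093 to 28230736 on the plus strand. Sema4a (20351) spans chromosome 3 from 88435959 to 88461182 on the minus strand. Gp2 (67133) spans chromosome 7 from 119442537 to 119459272 on the minus strand. The promoter windows of RefSeq, each 300 bases long with 50 bases after the transcription start, numbered 2 for Olfm1, 4 for Sema4a and 1 for Gp2. For each gene the most upstream window that held one of the motifs searched is shown, 5′ to 3′ on the strand of the gene. They let a reader compare transcription starts of genes that rose in the same cells. That each window shown holds a motif is fixed by this choice. Capitals mark GAGGAA, the core of PU.1 sites, or its reverse complement.
Olfm1, chr2:28205439-28205738, plus strand: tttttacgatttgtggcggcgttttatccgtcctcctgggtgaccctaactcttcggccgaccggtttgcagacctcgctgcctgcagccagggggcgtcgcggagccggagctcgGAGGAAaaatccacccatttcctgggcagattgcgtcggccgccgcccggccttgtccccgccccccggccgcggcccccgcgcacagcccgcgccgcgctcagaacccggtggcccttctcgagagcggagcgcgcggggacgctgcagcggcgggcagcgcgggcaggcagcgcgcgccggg
Sema4a, chr3:88461133-88461432, minus strand: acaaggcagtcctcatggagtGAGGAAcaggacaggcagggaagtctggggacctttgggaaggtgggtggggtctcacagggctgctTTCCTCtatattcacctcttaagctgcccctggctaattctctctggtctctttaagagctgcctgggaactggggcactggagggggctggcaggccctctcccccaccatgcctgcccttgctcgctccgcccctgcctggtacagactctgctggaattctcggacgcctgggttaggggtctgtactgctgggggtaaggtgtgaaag
Gp2, chr7:119459223-119459522, minus strand: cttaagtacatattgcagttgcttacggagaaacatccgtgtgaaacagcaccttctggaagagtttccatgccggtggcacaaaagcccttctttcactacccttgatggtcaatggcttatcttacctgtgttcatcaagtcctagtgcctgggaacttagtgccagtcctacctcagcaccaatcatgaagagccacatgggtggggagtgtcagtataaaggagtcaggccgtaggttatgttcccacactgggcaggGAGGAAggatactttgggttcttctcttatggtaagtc

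Both strands were searched for 4 motifs: GAGGAA, the STAT palindrome TTCNNNGAA, the AP-1 site TGANTCA and the interferon-response element core GAAANNGAAA. No match of one motif overlapped a match of another. GAGGAA was found in 1 of the 2 Olfm1 windows, in 2 of the 4 Sema4a windows and in the Gp2 window, and 28.3% of all 32851 RefSeq promoter windows held it. The first base of GAGGAA lay at -134 in the Olfm1 window shown, at -229 and -162 in that of Sema4a and at 13 in that of Gp2. Positions count from the transcription start of each window, with the first transcribed base as 1. For Olfm1 that start is 28205689, while the window at the gene's own start, 28193093, held no match of the 4 motifs. None of the 7 windows held TTCNNNGAA, TGANTCA or GAAANNGAAA, which were found in 8.3%, 7.8% and 3.4% of all windows. The bases differed in composition, with 72.3% G or C in the Olfm1 window shown, 59.7% in that of Sema4a and 48.3% in that of Gp2, beside a median of 52.7% over all windows.

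The values are FPKM, the fragments mapped to a gene scaled to its transcript length and to the size of the library. Replicates correlated across genes with r from 0.947 in control cDC1s to 0.996 in P-IV, and the cDC libraries varied more than those of the CD115-high cells. For 11 libraries the steps between low values gave a depth of about 24740000 to 47300000 fragments, while the depth of the other 5, among them both control cDC2 libraries, is unknown. The genes of the sort gates fitted their labels. Xcr1 was at 169.5 to 258.3 FPKM in the cDC1 libraries and at most 1.69 elsewhere. Clec4a4, which encodes the 33D1 antigen, was at 150.6 and 151.4 in control cDC2s and at 77.6 and 72.2 in GM-CSF cDC2s, against at most 9.45 elsewhere. Mgl2, which encodes CD301b, was at 772.7 and 803.0 FPKM in P-IV, 401.9 and 434.7 in DC-Xs and at most 64.1 elsewhere.

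In cDC2s, where the genes were chosen, all 3 went from a few FPKM in control mice to levels like those of control cDC1s or above. Olfm1 was at 4.94 and 6.41 FPKM in the control cDC2 libraries and at 107.3 and 139.2 in the GM-CSF cDC2 libraries. Sema4a was at 4.71 and 4.54 in control cDC2s and at 67.5 and 94.0 in GM-CSF cDC2s. Gp2 was at 4.50 and 8.80 in control cDC2s and at 47.3 and 127.8 in GM-CSF cDC2s. For none of them did the control and GM-CSF libraries overlap, which the choice of the genes fixes, and the treated replicates of Gp2 lay farthest apart.

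Group means of FPKM were 21.7 times the control for Olfm1, 17.4 times for Sema4a and 13.2 times for Gp2. On the log2(FPKM + 1) scale the differences were 4.21, 3.84 and 3.43. Gp2's difference was 2.72 without replicate 2 of GM-CSF cDC2s and 4.13 without replicate 1, a wider range than the 4.03 to 4.40 of Olfm1 and the 3.61 to 4.08 of Sema4a over the libraries left out. Just outside the chosen genes stood the predicted gene Gm12070 with a difference of 3.35, which came from 102.5 FPKM in 1 GM-CSF library and a listed 0 in the other 3. Cysltr1, a receptor for cysteinyl leukotrienes, followed with 3.19 and Ccl6, a chemokine of myeloid cells, with 3.12. Of all genes tested, 5.28% were called in this comparison, meaning an adjusted p under 0.05 and a difference of at least 1 on the log2 scale, and nothing is read from the chosen genes against that share.

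By rank within a group, Olfm1 stood at percentile 70.9 of all genes in control cDC2s and 97.7 in GM-CSF cDC2s, Sema4a at 68.9 and 95.8, and Gp2 at 72.6 and 96.2. The control cDC2s were thus not devoid of these transcripts, but they held the lowest mean level of Olfm1 and of Sema4a among the 8 groups.

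**Figure D1:**
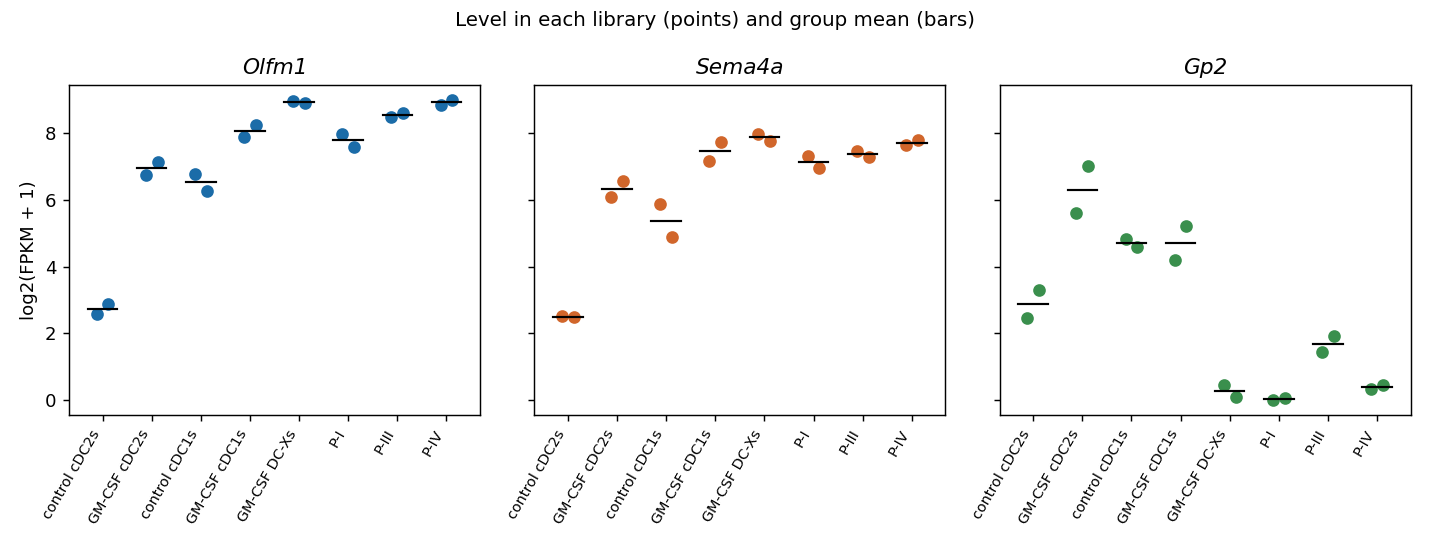
Level of Olfm1, Sema4a and Gp2 in each of the 16 libraries as log2(FPKM + 1), by group, with points for libraries and bars for the mean of the 2 libraries. Olfm1 and Sema4a are lowest in control cDC2s and highest in DC-Xs and P-IV, whereas Gp2 is highest in GM-CSF cDC2s and near 0 in DC-Xs, P-I and P-IV.

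The cDC1s gave a comparison of the same treatment in cells that the choice had not used. Olfm1 and Sema4a rose there too, and Gp2 was not called. Olfm1 was at 109.8 and 76.7 FPKM in control cDC1s (93.3 ± 23.4, SD, n = 2) and at 234.5 and 305.7 in GM-CSF cDC1s (270.1 ± 50.3, SD, n = 2). Its log2 difference was 1.53 ± 0.23 (SE), with an adjusted p of 0.00152 from limma with Benjamini-Hochberg adjustment over all genes tested.

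Sema4a was at 57.5 and 28.6 FPKM in control cDC1s and at 143.2 and 214.3 in GM-CSF cDC1s. Its log2 difference was 2.08 ± 0.30 (SE, limma adjusted p = 0.00135), a ratio of means of 4.15. Sema4a had the 66th and Olfm1 the 361st largest rise of all genes tested in this comparison. Of all genes tested, 14.8% were called.

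Gp2 was at 27.7 and 22.8 FPKM in control cDC1s and at 17.5 and 35.9 in GM-CSF cDC1s. The GM-CSF libraries lay on either side of the controls. The log2 difference was 0.00 with a 95% interval from -0.97 to 0.97, so that a change of just under 2-fold in either direction lay within the interval (limma adjusted p = 1).

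Changes in cDC1s are to be read beside a shift of all genes. The median log2 difference over all genes tested was 0.144, and 70.2% of the genes called were higher in GM-CSF cDC1s. With median-of-ratios scaling the median became 0.029 and that share 51.2%. Olfm1 and Sema4a stood at 1.37 and 1.92 under that scaling, and Gp2 at -0.16. Fitted to the 4 cDC1 libraries alone, with only 2 residual degrees of freedom, no gene was called by limma, 2145 genes had an unadjusted p under 0.05, and the adjusted p was 0.238 for both Olfm1 and Sema4a.

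Control cDC1s already held far more Olfm1 and Sema4a than control cDC2s, and the treatment narrowed that gap. The ratio of the cDC1 to the cDC2 mean for Olfm1 was 16.4 in control mice and 2.19 in GM-CSF mice. For Sema4a it was 9.30 in control mice and 2.21 in GM-CSF mice. For Gp2 it turned over, from 3.79 to 0.305. The cDC2 libraries in these ratios are those the genes were chosen on, so the ratios are descriptions without a test.

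DC-Xs and P-IV held the highest mean levels of Olfm1 and Sema4a. Olfm1 was at 503.6 and 483.4 FPKM in DC-Xs, at 459.8 and 511.7 in P-IV, at 355.1 and 389.0 in P-III and at 253.1 and 190.4 in P-I. It stood at percentile 99.6 of all genes in DC-Xs. In descending order of the means, DC-Xs and P-IV overlapped, P-III lay below both, GM-CSF cDC1s and P-I overlapped below it, GM-CSF cDC2s and control cDC1s overlapped next, and control cDC2s came last at 1.17% of the P-IV mean.

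Sema4a was at 253.8 and 215.3 FPKM in DC-Xs, at 198.0 and 222.8 in P-IV, at 174.9 and 156.3 in P-III and at 159.3 and 123.2 in P-I. The order was DC-Xs, P-IV, GM-CSF cDC1s, P-III and P-I, with each neighbour overlapping the next. GM-CSF cDC2s, control cDC1s and control cDC2s followed without overlap, the last at 2.20% of the P-IV mean.

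Gp2 had another order. GM-CSF cDC2s were highest, GM-CSF cDC1s and control cDC1s overlapped below them, and control cDC2s came next. P-III held 1.68 and 2.76 FPKM, P-IV 0.248 and 0.350, DC-Xs 0.358 and 0.0590, and P-I 0 and 0.0289. At the depth of these libraries that is about 126.5 and 154.2 fragments in P-III, 12.7 and 26.5 in P-IV, 17.7 and 5.6 in DC-Xs, and 0 and about 2 in P-I, where 3 fragments would be 0.0532 FPKM in the library listed at 0 (counting error only).

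Between DC-Xs and GM-CSF cDC1s, which lay in the same DC gate of treated mice, Gp2 was lower in DC-Xs by far. Its log2 difference was -4.44 ± 0.45 (SE, limma adjusted p = 1.24e-05), with a DC-X mean of 0.209 FPKM against 26.7. Olfm1 was higher in DC-Xs by 0.88 ± 0.23 on the log2 scale (limma adjusted p = 0.0136), short of the 2-fold rule. That difference was 1.07 without replicate 2 of GM-CSF cDC1s and 0.69 without their replicate 1. Fitted to the compared libraries alone, it had a limma adjusted p of 0.0728. For Sema4a the difference was 0.41 with a 95% interval from -0.24 to 1.07 and was not called (adjusted p = 0.372). Of all genes tested, 16.4% were called.

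Between DC-Xs and P-IV none of the 3 genes was called by limma, and none had an unadjusted p under 0.05. The log2 differences were 0.03 for Olfm1 (95% interval from -0.47 to 0.52), 0.15 for Sema4a (-0.50 to 0.81) and -0.11 for Gp2 (-1.09 to 0.86). Of all genes tested, 1.96% were called here. DC-Xs and P-IV share cells by their gates, so they are not fully separate populations.

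Along the CD115-high populations Olfm1 was higher in P-IV than in P-I, by 1.14 ± 0.23 on the log2 scale (SE, limma adjusted p = 0.00641), a ratio of means of 2.19, with 7.3% of all genes called. The call was lost without replicate 2 of P-IV (1.06, adjusted p = 0.0772) and without replicate 2 of P-I (0.94, adjusted p = 0.0978). Sema4a differed by 0.58 ± 0.30 (adjusted p = 0.336) and Gp2 by 0.36 ± 0.45 (adjusted p = 0.831) in the same comparison. P-III lay between P-I and P-IV in Olfm1 and in Sema4a.

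From P-I to P-III, Olfm1 differed by 0.76 (adjusted p = 0.108), Sema4a by 0.24 (adjusted p = 0.978) and Gp2 by 1.64 (adjusted p = 0.0686) on the log2 scale. limma called none of the 3, with an unadjusted p under 0.05 for 2, and 3.51% of all genes were called. Gp2 was called between P-III and P-I under other settings, with a difference of 4.31 and a limma adjusted p of 0.00223 at a pseudocount of 0.1. From P-III to P-IV the differences were 0.38 for Olfm1, 0.34 for Sema4a and -1.29 for Gp2, with adjusted p of 1, 1 and 0.581. None was called by limma, 1 had an unadjusted p under 0.05, and 0.591% of all genes were called.

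**Figure D2:**
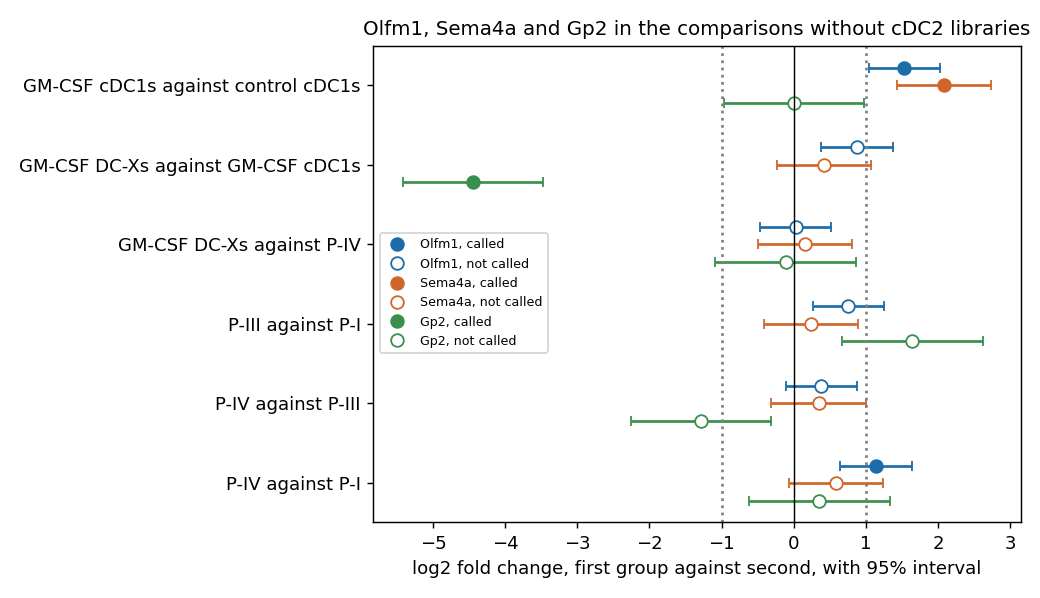
Log2 fold changes of Olfm1, Sema4a and Gp2 with 95% intervals from limma in the 6 comparisons that hold no cDC2 library. Filled points passed an adjusted p under 0.05 and the 2-fold rule (dotted lines at -1 and 1), which were Olfm1 and Sema4a in cDC1s, Gp2 between DC-Xs and GM-CSF cDC1s, and Olfm1 between P-IV and P-I.

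In sorted populations a change in a transcript can come with a change in which cells the gate holds, and in bulk samples fewer cells of a type and less RNA per cell cannot be told apart. P-IV cells carry much Olfm1 and Sema4a, so their markers were set beside the rise. Of the 6 P-IV markers, 3 had higher and 3 lower means in GM-CSF cDC2s than in control cDC2s, all as values without a test. Mgl2 was at 0 and 0.597 FPKM in control cDC2s and at 2.70 and 1.14 in GM-CSF cDC2s. Clec10a, the lectin CD301a, went from 0 and 0.354 to 8.07 and 3.66, and Cd209a, a DC-SIGN homolog, from 227.0 and 223.5 to 324.9 and 256.6.

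Csf1r, the CD115 antigen of the P-IV gate, went from 65.4 and 74.4 FPKM in control cDC2s to 36.3 and 39.6 in GM-CSF cDC2s. Mmp12, a macrophage elastase, went from 61.8 and 48.4 to 39.9 and 36.3, and Mrc1, the mannose receptor, from 3.07 and 2.30 to 1.99 and 1.15. As a share of its P-IV mean, the level in GM-CSF cDC2s was 0.244% for Mgl2, 4.61% for Clec10a, 9.58% for Csf1r, 11.5% for Mmp12, 18.4% for Cd209a and 19.4% for Mrc1. Olfm1 stood at 25.4% and Sema4a at 38.4% of their P-IV means. Control cDC2s already held part of these levels. The GM-CSF mean minus the control mean in cDC2s was 24.2% of the P-IV mean for Olfm1 and 36.2% for Sema4a. For the markers this share was 4.47% for Clec10a, 4.14% for Cd209a, 0.206% for Mgl2, -5.13% for Mmp12, -8.08% for Csf1r and -13.8% for Mrc1.

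The 6 P-IV markers summed to 349.6 to 357.2 FPKM in control cDC2s and to 338.4 to 413.8 in GM-CSF cDC2s, beside 3204 to 3260 in P-IV, with none at 0 in both GM-CSF libraries. The summed ranges of the 2 cDC2 groups overlapped. In GM-CSF cDC1s the same list summed to 24.5 to 30.3 FPKM against 7.82 to 11.3 in control cDC1s, with Mgl2 at 0.626% and Csf1r at 2.42% of P-IV, where Olfm1 stood at 55.6% and Sema4a at 85.0%. For Gp2 the level in GM-CSF cDC2s was far above that in P-IV, 87.6 against 0.299 FPKM.

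Other marker sums differed without overlap between the cDC2 groups. With 2 libraries a group, a lack of overlap is a weak criterion, and a sum can rest on 1 gene of its list. Platelet markers (4 genes) summed to 1.05 to 1.57 FPKM in control cDC2s and to 0.334 to 0.536 in GM-CSF cDC2s. NK cell markers (4 genes) summed to 71.4 to 89.8 FPKM in control cDC2s and 33.1 to 46.7 in GM-CSF cDC2s, classical monocyte markers (5 genes) to 72.9 to 83.7 and 41.8 to 43.1, T cell markers (5 genes) to 17.6 to 19.2 and 23.2 to 24.3, neutrophil markers (7 genes) to 2.54 to 2.55 and 5.65 to 8.24, and basophil or mast cell markers (4 genes) to 0.947 to 1.11 and 1.41 to 4.68. The T cell rise lay mainly in Cd5, from 10.1 and 13.9 FPKM in control cDC2s to 18.0 and 21.9 in GM-CSF cDC2s. The means of Lck and Cd3g were lower and those of Cd3e and Cd3d slightly higher. The NK cell sum was mostly Klrd1, at 88.2 and 69.2 FPKM and then 45.35 and 32.2. The classical monocyte sum was mostly Csf1r, at 65.4 and 74.4 FPKM and then 36.3 and 39.6. Red pulp macrophage markers (7 genes) summed to 234.6 to 341.8 and 340.6 to 375.3, with overlap, but these genes moved in opposite directions. Adgre1 went from 116.8 and 132.4 FPKM in control cDC2s to 232.3 and 309.6 in GM-CSF cDC2s, and the mean of Spic was also higher. The means of Vcam1, Slc40a1, C1qa, C1qb and Cd5l were lower in GM-CSF cDC2s. Of these, Slc40a1 went from 52.56 and 27.06 to 24.21 and 17.06, and C1qb from 54.29 and 23.71 to 23.03 and 11.44, without a test. Between the cDC1 groups, B cell markers (5 genes) summed to 29.9 to 34.7 FPKM in control and 13.8 to 14.6 in GM-CSF mice, NK cell markers to 5.62 to 13.5 and 3.24 to 3.58, classical monocyte markers to 66.2 to 72.8 and 52.7 to 54.6, neutrophil markers to 0.585 to 0.645 and 4.16 to 4.22, platelet markers to 0.147 to 0.600 and 1.10 to 1.14, and basophil or mast cell markers to 0 to 0.162 and 0.814 to 1.75, all without overlap. The part of these cells in the rise of Olfm1, Sema4a and Gp2 was not tested.

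**Figure D3:**
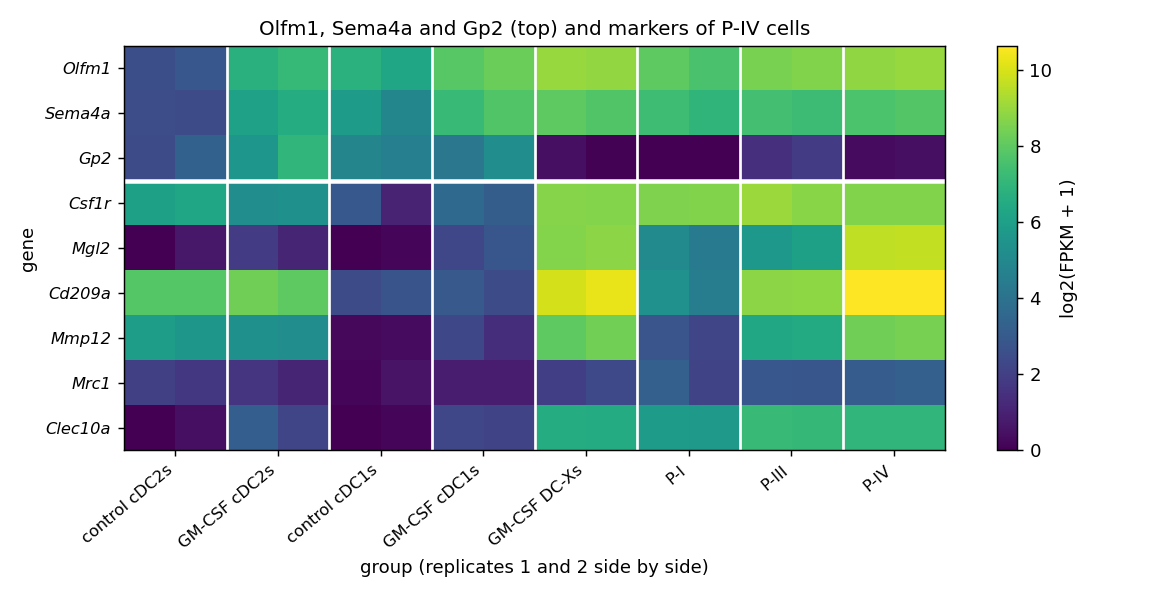
Levels as log2(FPKM + 1) of Olfm1, Sema4a and Gp2 above the line and of 6 markers of P-IV cells below it, 1 column per library and 2 columns per group. In GM-CSF cDC2s Mgl2, Clec10a and Mrc1 are low, Csf1r and Mmp12 are intermediate and Cd209a is bright. In GM-CSF cDC1s all 6 markers are low. Olfm1 and Sema4a are brighter in GM-CSF than in control columns of both cDC subsets, and Gp2 is dark in the columns where the markers are brightest.

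Olfm1 and Sema4a had a Pearson r of 0.987 between their log2 values over the 16 libraries, and over these libraries each was the gene most like the other among 11334. That rank rests on the cDC2 libraries, on which both genes were chosen. Over the 12 libraries without cDC2s r was 0.947, and Sema4a then ranked 28th among the genes most like Olfm1, and Olfm1 98th among those most like Sema4a. Gp2 had an r of -0.345 with Olfm1 and -0.324 with Sema4a over the 16 libraries, and of -0.631 and -0.566 without cDC2s. The points of each r are 8 groups of replicates, or 6 without cDC2s, and are given as descriptions.

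The other genes most like Olfm1 over the 16 libraries were Ahnak, a large scaffold protein (r = 0.938), Btbd1 (0.934), Cysltr1 (0.933) and Tmbim1 (0.926). Those most like Sema4a were Stx2, a syntaxin (0.942), Me2, the mitochondrial malic enzyme (0.934), Btbd1 (0.934) and Adora3, the adenosine A3 receptor (0.934). These lists, too, were set in part by the cDC2 libraries: without them Btbd1 ranked 16th for Olfm1, and the others ranked from 330th to 2125th. The closest genes without cDC2s were Sfxn3 for Olfm1 (0.983) and Nckap1l for Sema4a (0.991), named after their values were seen. Cysltr1 went from 0.19 and 1.21 FPKM in control cDC2s through 11.5 and 16.5 in GM-CSF cDC2s to 42.4 and 43.6 in P-IV.

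The genes most like Gp2 were Pithd1 (0.936), Cryz, a quinone reductase (0.925), Ckb, the brain-type creatine kinase (0.921), Ube2e3, a ubiquitin-conjugating enzyme (0.920), and Wdr86 (0.912). Without cDC2s Ckb ranked 5th (0.967) and the others from 28th to 111th, and the closest was Esam, an adhesion molecule of splenic cDC2s (0.978). Ckb was at 351.4 to 1112 FPKM in the 8 cDC libraries and at 32.7 to 88.2 in the 8 libraries of DC-Xs and CD115-high cells. Wdr86 was at 11.0 to 32.6 in the cDC libraries and at 0.647 to 1.21 in the others. Pithd1, like Gp2, was highest in GM-CSF cDC2s, at 97.2 and 101.2 FPKM.

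**Figure D4:**
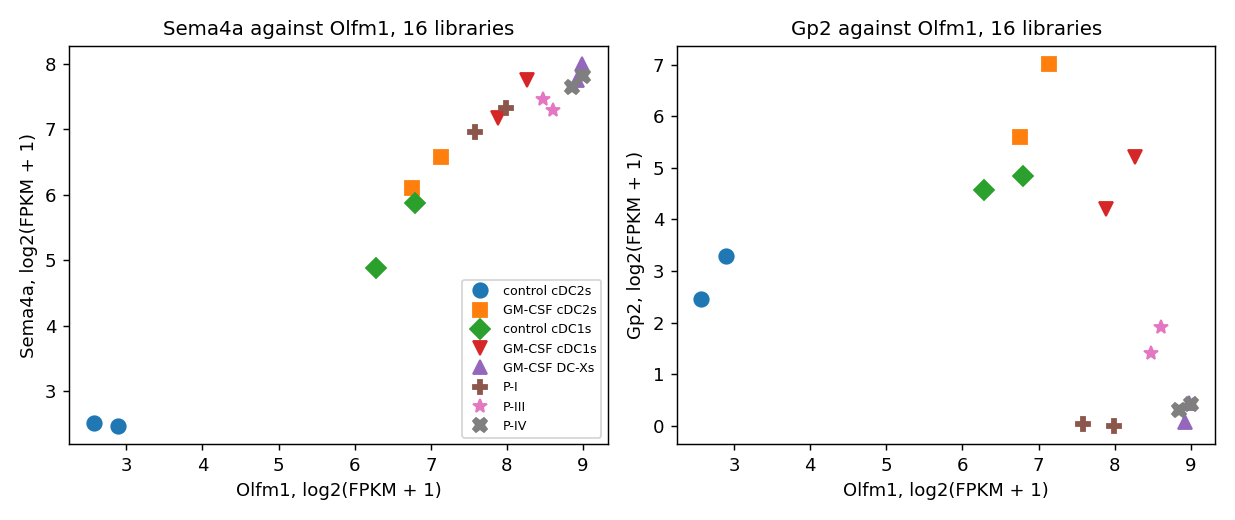
Sema4a (left) and Gp2 (right) against Olfm1, each as log2(FPKM + 1) in 16 libraries marked by group. Sema4a climbs with Olfm1 from control cDC2s to DC-Xs and P-IV (r = 0.987), whereas Gp2 is highest in GM-CSF cDC2s and lowest where Olfm1 is high in DC-Xs, P-I and P-IV (r = -0.345).

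Sema4a was set beside the rest of its family, 20 semaphorin genes. Of these, 5 were tested, Sema4a among them, and the other 4 were Sema4b, Sema4d, Sema4f and Sema6b. In cDC2s limma called none of the 4, beside 5.28% of all genes, with 1 at an unadjusted p under 0.05. Their median log2 difference was 0.23 beside 0.02 over all genes. In cDC1s 2 of the 4 rose, beside 14.8% of all genes called there, most of them higher. Sema4d, which binds plexin-B1 and CD72, went from 15.4 and 6.78 FPKM to 33.4 and 48.4 (log2 difference 1.87, adjusted p = 0.00548). Sema4f went from 10.5 and 4.93 FPKM to 30.0 and 20.9 (1.66, adjusted p = 0.00435). Both stayed called under median-of-ratios and quantile scaling, and Sema4d was no longer called with library weights (adjusted p = 0.134).

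In the DC-Xs Sema4f, like Gp2, was far below GM-CSF cDC1s, at 0.308 and 0.0572 FPKM (log2 difference -4.47, adjusted p = 6.07e-07). Sema4d had its highest level in cDC2s, at 89.4 and 142.4 FPKM in control mice and 74.6 and 94.6 in GM-CSF mice. Thus Sema4d was the more abundant of the pair in control cDC2s, where Sema4a was at 4.63 FPKM on average, and the means were 84.6 and 80.7 FPKM after GM-CSF. None of the 4 was called between DC-Xs and P-IV, P-III and P-I, P-IV and P-III or P-IV and P-I, with 0, 0, 1 and 1 at an unadjusted p under 0.05. Of all genes, 1.96%, 3.51%, 0.591% and 7.3% were called there.

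Of 15 semaphorin receptor genes 9 were tested. In cDC2s 1 of 9 was called, beside 5.28% of all genes. Cd72, the receptor of Sema4d on B cells, fell from 83.2 and 82.3 FPKM to 19.5 and 19.3 (log2 difference -2.04, adjusted p = 0.000887). Plxnd1, a plexin that binds Sema4a, went from 7.24 and 7.92 to 16.2 and 13.3 FPKM in cDC2s, but its log2 difference of 0.87 was under the 2-fold rule (limma adjusted p = 0.0331). Plxnc1, another plexin of the list, went the other way, from 76.3 and 106.0 FPKM in control cDC2s to 46.7 and 43.3 in GM-CSF cDC2s. Its log2 difference of -0.98 was also just under the rule (limma adjusted p = 0.015). In cDC1s Nrp1, the co-receptor neuropilin 1, rose from 1.66 and 2.89 FPKM to 6.45 and 7.37 (1.29, adjusted p = 0.00408), a call lost with quantile normalization (0.98), the length correction (0.84, adjusted p = 0.069) and library weights (adjusted p = 0.0525).

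DC-Xs differed from GM-CSF cDC1s in 6 of the 9 receptors, 5 higher and 1 lower, beside 16.4% of all genes, with a list median of 1.07 on the log2 scale beside -0.06 over all genes. The higher ones were Nrp2 (3.63), Plxnd1 (3.15), Plxnb2 (2.41), Plxna1 (1.53) and Plxnb3 (1.07), and Met was lower (-1.34), with adjusted p from limma between 5.54e-07 and 0.000433. Nrp2 was also higher in P-IV than in P-I (2.50, adjusted p = 0.000224), at 11.3 and 15.97 against 2.53 and 0.859 FPKM. It was called between P-III and P-I as well (1.302, adjusted p = 0.0334), though not without replicate 2 of P-I (adjusted p = 0.402) or either P-III library (0.122 and 0.293). Nrp1 was lower in P-IV than in P-I (-1.21, adjusted p = 0.00666), a call lost without replicate 1 of P-IV (0.0812) or replicate 2 of P-I (0.0722). DC-Xs and P-IV, and P-IV and P-III, gave no call among the 9, beside 1.96% and 0.591% of all genes, with 1 and 2 at an unadjusted p under 0.05.

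**Figure D5:**
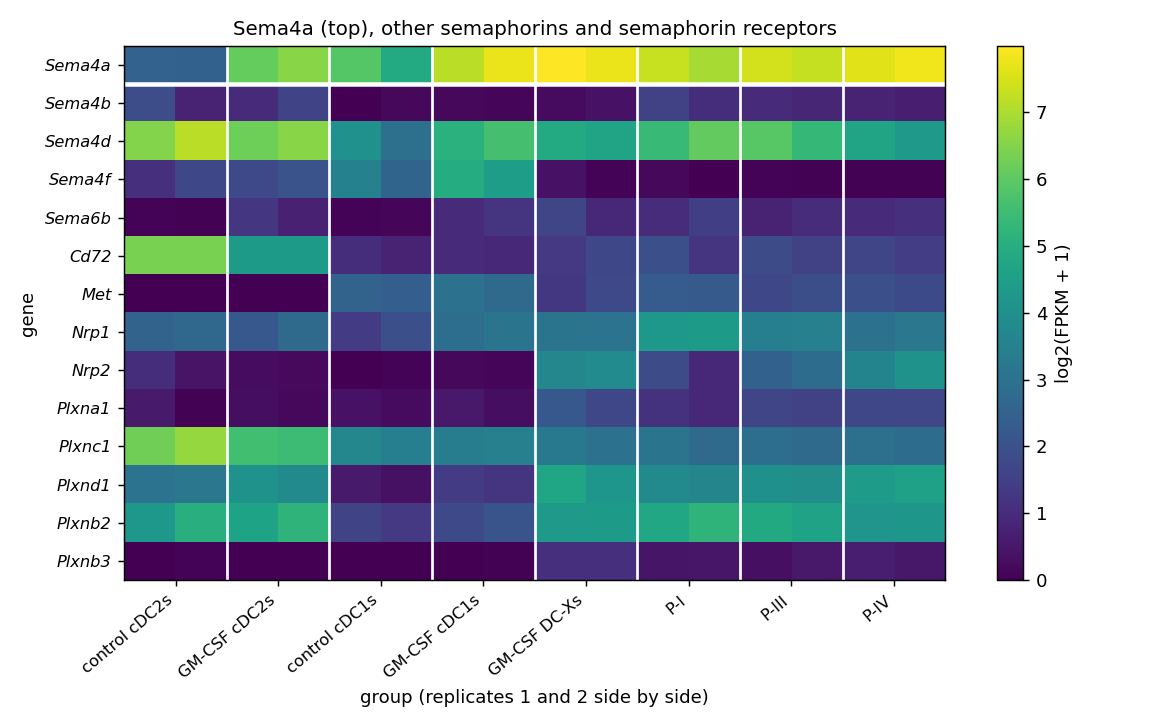
Levels as log2(FPKM + 1) of Sema4a above the line and of the 4 other semaphorins and 9 semaphorin receptors tested, 1 column per library and 2 columns per group. Sema4a is dim in control cDC2s and bright elsewhere, Sema4d and Cd72 are brightest in control cDC2s, and Nrp2 is bright in DC-Xs and P-IV.

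Relatives and partners of Olfm1 and Gp2 were mostly too low to test. Of 16 olfactomedin domain proteins and binding partners, 3 were tested: Olfm1 itself, Adgrl3 (latrophilin 3, a receptor with an olfactomedin domain) and Rtn4 (Nogo, a myelin protein). Neither Adgrl3 nor Rtn4 was called by limma in cDC2s or cDC1s, beside 5.28% and 14.8% of all genes, with 1 and 0 at an unadjusted p under 0.05. Adgrl3 was at 18.4 and 22.1 FPKM in control cDC2s and at 8.85 and 10.4 in GM-CSF cDC2s, opposite in direction to Olfm1. Adgrl3 was higher in DC-Xs than in GM-CSF cDC1s (log2 difference 1.45, adjusted p = 0.000746) and higher in P-III and P-IV than in P-I (1.32 and 1.57). The call between P-III and P-I was lost without replicate 1 of P-III (adjusted p = 0.122) or either P-I library (0.071 and 0.0662).

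Of 14 zona pellucida domain proteins only Gp2 and Eng, the endothelial and macrophage protein endoglin, were tested. Eng was under 1 FPKM in all 8 cDC libraries and at 3.42 to 4.97 in DC-Xs and P-IV, the reverse of Gp2, and was called between DC-Xs and GM-CSF cDC1s only (1.87, adjusted p = 6.4e-05). It was not called by limma in the other 6 comparisons, where 0.591% to 14.8% of all genes were, with 1 unadjusted p under 0.05, between P-IV and P-I.

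Gp2 is best known from M cells, so 11 genes of M cells were examined, of which 7 were tested beside Gp2. In cDC2s 1 rose and 2 fell, beside 5.28% of all genes called. Ccl9, a chemokine that M cell-rich epithelium makes, went from 3.20 and 2.63 FPKM to 14.4 and 8.33 (log2 difference 1.62, adjusted p = 0.00393). Unlike Gp2, Ccl9 was far above these levels in DC-Xs (172.5 and 181.5 FPKM) and in the CD115-high libraries (188.7 to 340.4). Spib, a transcription factor M cells need, fell from 23.9 and 11.7 FPKM to 3.46 and 3.87 (-1.93, adjusted p = 0.00825), and was not called without replicate 1 of control cDC2s (-1.45, adjusted p = 0.0807). Marcksl1 fell from 242.8 and 206.7 to 51.2 and 59.8 (-2.00, adjusted p = 0.03), and its call was lost without any one of the 4 libraries, with adjusted p from 0.0632 to 0.174. The list median was -0.27 beside 0.02 over all genes.

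In cDC1s limma called none of the 7 M cell genes, beside 14.8% of all genes, with 3 at an unadjusted p under 0.05. In DC-Xs against GM-CSF cDC1s, where Gp2 was lower, Ccl9 (6.18), Spib (1.37) and Tnfrsf11a, the receptor RANK (1.13), were higher and Pglyrp1, a peptidoglycan recognition protein, was lower (-2.05), beside 16.4% of all genes called. Spib was not called there without replicate 1 of DC-Xs (adjusted p = 0.0992) or replicate 1 of GM-CSF cDC1s (0.0976), nor Tnfrsf11a without the latter (0.82). Pglyrp1 was also lower in P-IV than in P-I (-4.69, adjusted p = 6.16e-06) and Tnfaip2, an M cell protein of tunnelling nanotubes, was lower there too (-3.27, adjusted p = 0.006). The Tnfaip2 call was lost without replicate 1 of P-IV (adjusted p = 0.0513) or replicate 2 of P-I (0.0592). Pglyrp1 was also called lower in P-III than in P-I (-1.73) and in P-IV than in P-III (-2.97), of which the first was lost without replicate 2 of P-I (-1.20, adjusted p = 0.217) or either P-III library (0.099 and 0.137), and the second without replicate 2 of P-IV (0.0518). None was called between DC-Xs and P-IV, beside 1.96% of all genes, with 2 at an unadjusted p under 0.05.

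The GM-CSF receptor and STAT5 genes, 12 of 12 tested, were read beside the chosen genes because all 3 were higher in cDC2s after that cytokine. In cDC2s 1 rose and 1 fell, beside 5.28% of all genes called. Cish, a feedback inhibitor induced by STAT5, rose from 0.0199 and 0.459 FPKM to 8.45 and 2.19 (log2 difference 2.17, adjusted p = 0.0199). It was not called without replicate 1 of GM-CSF cDC2s (1.39, adjusted p = 0.121) or without replicate 1 of control cDC2s (adjusted p = 0.151). Socs2, another suppressor of cytokine signalling, fell from 14.9 and 14.9 to 2.30 and 3.39 FPKM (-2.06, adjusted p = 0.0161), and lost the call without either GM-CSF library or without replicate 1 of control cDC2s, with adjusted p from 0.0614 to 0.0887.

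In cDC1s Csf2rb (1.11) and Stat5a (1.21) rose and Socs2 fell (-1.97), beside 14.8% of all genes called. With quantile normalization Csf2rb and Stat5a stood at 0.95 and 0.89, under the 2-fold rule, and with the length correction at 0.65 and 0.75. With median-of-ratios scaling Csf2rb was under the rule (0.946), while Stat5a stayed called (1.075). With library weights limma called none of Csf2rb, Stat5a and Socs2 (adjusted p = 0.0971, 0.0703 and 0.117). Csf2rb also lost its call without replicate 2 of control cDC1s (0.68), Stat5a without that library (0.61) or replicate 2 of GM-CSF cDC1s (adjusted p = 0.0902), and Socs2 without replicate 1 of GM-CSF cDC1s (-1.17). The level of Csf2ra followed the order of Olfm1 at its upper end, with 572.6 and 576.4 FPKM in DC-Xs, 388.7 and 414.5 in P-IV and 340.6 and 300.5 in P-III. In cDC2s Csf2ra was at 101.1 and 145.3 FPKM in control mice and at 114.8 and 171.5 in GM-CSF mice, with overlap. DC-Xs against GM-CSF cDC1s gave 4 higher (Csf2ra, Csf2rb, Csf2rb2 and Socs3) and 1 lower (Socs1) of the 12, beside 16.4% of all genes called. Of these calls, Csf2rb was lost without replicate 1 of DC-Xs (0.90) and Csf2rb2 without that library or either GM-CSF cDC1 library (adjusted p from 0.0849 to 0.269). The 4 comparisons among DC-Xs and CD115-high cells gave no call among the 12 by limma, with 1 unadjusted p under 0.05, between P-IV and P-I. Of all genes tested, only 0.591% to 7.3% were called in these comparisons.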

How the data were processed

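Libraries were made with a SMARTer ultra-low-input kit from sorted cells and sequenced on a NovaSeq. The authors converted reads with bcl2fastq 1.8.4, aligned them to mm10 with HISAT2 2.1.0 and estimated FPKM with StringTie 1.3.4d, per the study and the submitters' processing notes. The deposited FPKM table holds 24532 genes in 16 libraries and no counts, and FPKM does not remove length- or composition-dependent bias between libraries. Groups and replicate numbers followed the sample labels.

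The test was limma 3.58.1 (variance trend, R 4.3.3) on log2(FPKM + 1), with all 16 libraries in 1 fit of 8 group means with 8 residual degrees of freedom, so that the spread is pooled over the groups. The 11335 genes that reached 1 FPKM in 2 libraries entered it. A gene was called at a Benjamini-Hochberg adjusted p under 0.05 and a log2 difference of at least 1, the study's 2-fold rule. This scale understates changes of low genes. Each p-value rests on the spread of 2 libraries a group. "Rose", "fell", "higher" and "lower" with an adjusted p refer to called genes unless the text says otherwise.

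The genes described and the lists of relatives, receptors, M cell, STAT5 and marker genes were chosen with earlier results of these data known. From the lists, called genes were named, at most 6 per list and comparison, and for each chosen gene the 5 with the highest r. Csf2ra, Plxnd1 and Plxnc1 in cDC2s, Sema4d in cDC2s, Adgrl3 in cDCs, Gm12070, Ccl6, Sfxn3, Nckap1l and Esam were named after their values were seen. So were Cd5, Klrd1 and the other single genes picked out of the marker sums. RefSeq matched 24462 genes by Entrez number, and transcript lengths were found for 99.6% of the genes tested. Alternatives were another pseudocount, no filter, 2 scalings, library weights, a replicate block, a length correction, other sets of libraries and each library left out. Applying these to list genes, the correlations without cDC2s and the split of the pairing check by gate were added after seeing the data. Python 3.11.15, numpy 2.4.6, pandas 2.3.3 and matplotlib 3.10.9 were used for summaries and plots.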

Additional observations from a re-analysis of the deposited data

How the results depend on the processing

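Every group had 2 libraries, which limits all tests, and 2 residual degrees of freedom were left when the compared libraries were fitted alone. Of 234 alternative values of Olfm1, Sema4a and Gp2 in the 6 tested comparisons, 213 kept their direction and their side of the threshold. The genes were chosen on the cDC2 comparison, so its alternatives are no sign of stability. Of 501 alternative values of the list genes called, 427 stayed called, 74 were no longer called and none changed direction.

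In cDC1s, Olfm1 (1.53) and Sema4a (2.08) were called in every fit except that to the compared libraries alone (adjusted p = 0.238 for both). Gp2 changed sign around 0 there, at -0.002 with a pseudocount of 0.1, -0.16 with median-of-ratios scaling and -0.12 with quantile normalization, and ran from -0.50 to 0.50 over the libraries left out. Between DC-Xs and GM-CSF cDC1s, Olfm1 ran from 0.69 to 1.07 over the libraries left out and was called at the top of that range. Between DC-Xs and P-IV, Olfm1 was at -0.046 with the length correction and at -0.052 to 0.102, and Gp2 at -0.294 to 0.066, over the libraries left out. Gp2 was called between P-III and P-I at 4.31 with a pseudocount of 0.1, and at 1.64 with library weights, without the cDC2 libraries and in the compared libraries alone. Between P-IV and P-III it was called at -1.29 with library weights and in the compared libraries alone. Olfm1 between P-IV and P-I ran from 0.94 to 1.34 over the libraries left out, with 2 of 4 not called. The cause of these changes was not tested.

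Nothing in the labels says what a replicate number shares, and the deviations of same-numbered libraries correlated above 0.1 in 10 of 28 pairs of groups. These were 8 of the 10 pairs within the DC gate (r from -0.014 to 0.671), 2 of the 3 within the CD115-high cells and 0 of the 15 between the gates. As not every pair was above 0.1, the values reported carry no block, and what same-numbered DC-gate libraries share is not known. With the replicate block, Gp2 was called between P-III and P-I at 1.64 (adjusted p = 0.033), no other call of the 3 genes changed, and 654 genes were called in cDC2s and 1743 in cDC1s.

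Counts of genes called moved more. In cDC2s 598 were called, 322 with library weights, 0 in the compared libraries alone (1482 at an unadjusted p under 0.05) and 276 to 959 over the libraries left out. In cDC1s 1678 were called, 454 with library weights, 863 with the length correction, 0 in the compared libraries alone and 1004 to 2821 over the libraries left out. Between DC-Xs and P-IV 222 were called, 142 without the filter, 135 with median-of-ratios scaling, 357 with library weights, 79 with the length correction, 3 in the compared libraries alone and 0 to 175 over the libraries left out, the 0 without either P-IV library (836 and 910 at an unadjusted p under 0.05). Between P-III and P-I 398 were called, 631 with library weights and 130 to 259 over the libraries left out. Between P-IV and P-III 67 were called, 31 with a pseudocount of 0.1, 184 with library weights, 145 in the compared libraries alone and 10 to 16 over the libraries left out. Between P-IV and P-I 827 were called and 477 to 632 over the libraries left out. Higher genes were 27.9% of those called between P-III and P-I and 33.4% between P-IV and P-I, and 39.3% and 44.9% with median-of-ratios scaling, which moved the median of all genes between P-IV and P-I from -0.101 to 0.012.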
